A study of Mus musculus with 14 samples.

Results

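A set of 40 genes was examined that encode the motors of the motile axoneme and the parts that build, anchor or regulate them. The genes were chosen by name and role, with earlier results of these data known, and make up 40 of the 53239 gene symbols in the tables. By role, the list holds 5 outer arm and 8 inner arm dynein heavy chains, 3 intermediate and light chains, 4 cytoplasmic assembly factors, 7 docking, ruler, nexin-dynein regulatory and tether genes, 2 radial spoke genes, 9 genes of the central apparatus and its associates, and 2 tektins. Sequenced RNA came from testes of 3 wild-type (Adad2+/+) and 4 mutant (Adad2M/M) C57BL/6 mice at 21 dpp (days post partum). All 7 animals, controls included, carried the RiboTag allele (an HA tag on the ribosomal protein RPL22) and Stra8-iCre, a Cre that switches on the tag as spermatogonia begin to differentiate. From each testis sample total RNA (input) and RNA co-precipitated with HA-tagged ribosomes (IP) were sequenced, which gave 14 libraries. Input therefore holds RNA of the whole testis with its somatic cells, whereas IP samples ribosomes of Cre-exposed germ cells and their descendants. The comparisons ask whether abundance (input), ribosome-bound RNA (IP) and ribosome association (IP relative to input) of these genes differed between genotypes.

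The axoneme is the microtubule core of cilia and of the sperm tail. Outer and inner dynein arms, built on very large heavy chains, slide neighbouring doublets past each other, while radial spokes and the central apparatus pass regulatory signals to the arms and the nexin-dynein regulatory complex holds doublets together. Dynein arms are put together in the cytoplasm by dedicated assembly factors before transport into the cilium. In the testis the genes for the tail axoneme are transcribed from the pachytene stage of meiosis onward, before any tail is visible, and some heavy chains have germ cell paralogs: Dnah8 and Dnah17 are the outer arm heavy chains known from sperm, whereas Dnah5, Dnah9 and Dnah11 are best known from airway and other epithelial cilia.

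Libraries held 22987974 to 30871330 expected counts. Genes above 0 numbered 25319 to 27791 in wild-type input but 16024, 15438, 21334 and 27002 in input of mutants 12, 69, 93 and 94. In IP they numbered 12744 to 15024 in mutants and 19655 to 21880 in wild types. Some members were at 0 in mutant libraries. Adad2 itself, the mutated gene, lay at 24.8, 27.3 and 30.8 CPM (counts scaled to library size, with TMM normalization) in wild-type input and at 5.47, 5.21, 11.1 and 10.99 CPM in mutant input. A count of 3, taken as the floor, corresponds to 0.0992 to 0.131 CPM, and this limit covers counting error alone. Zeros in mutants were not limited to members near this floor. Cfap44, with 2 mutant IP libraries at 0, lay at 133 to 188 CPM in wild-type IP. The labels name the animals but no litter or batch.

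Promoter sequence was at hand for 36 of the 40 members (41 windows, RefSeq, GRCm38.p6, from 250 bases before to 50 bases after each transcription start). They are shown for the 8 members whose window held an X-box, the palindromic element recognised by RFX factors, which are known regulators of ciliary genes. The X-box was searched as GTTNCC, then 2 or 3 bases of any kind, then GNAAC, on both strands. Capitals mark the match within 60 bases read 5′ to 3′ on the strand of the gene.
Cfap44, chr16:44394749-44394808, plus strand: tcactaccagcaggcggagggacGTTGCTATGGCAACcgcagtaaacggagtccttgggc
Dnaaf2, chr12:69198410-69198469, minus strand: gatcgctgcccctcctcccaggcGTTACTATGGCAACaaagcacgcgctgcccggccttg
Dnah9, chr11:66168598-66168657, minus strand: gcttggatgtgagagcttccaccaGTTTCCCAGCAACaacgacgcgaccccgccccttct
Dnai1, chr4:41569751-41569810, plus strand: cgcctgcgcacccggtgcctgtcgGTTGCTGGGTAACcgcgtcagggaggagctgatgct
Dnai2, chr11:114727362-114727421, plus strand: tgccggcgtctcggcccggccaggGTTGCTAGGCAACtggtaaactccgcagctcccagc
Hydin, chr8:110266933-110266992, plus strand: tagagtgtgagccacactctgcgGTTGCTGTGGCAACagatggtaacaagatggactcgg
Spag16, chr1:69826844-69826903, plus strand: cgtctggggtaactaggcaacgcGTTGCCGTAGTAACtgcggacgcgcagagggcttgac
Tekt2, chr4:126325682-126325741, minus strand: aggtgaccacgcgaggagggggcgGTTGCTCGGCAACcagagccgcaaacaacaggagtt

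The matches began 17 to 103 bases before the start. An X-box was found in 22.2% of members with a window and in 1.71% of all 27025 genes with a window. CAACTG, bound by MYB factors, was found in 36.1% of members, Dnah8, Dnah7a and Dnah7b among them, and in 15.4% of all genes. In Dnai2 the CAACTG match overlaps the X-box. TGACG, the core of the CREB and CREM site, was found in 11.1% of members and 23% of all genes, the full site TGACGTCA in 2.78% (Dnah6) and 2.03%, and TGTTTAC, bound by forkhead factors, in 5.56% (Cfap43 and Dnah17) and 4.05%. A match is a description of these letters and does not show that a factor binds.

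Among heavy chains the germ cell paralogs dominated. Per length, Dnah8 was highest, at 226 ± 37.5 TPM (SD, n = 3) in wild-type input, followed by Dnah17 at 49.6 ± 4.81 TPM, and the ranges of these 2 genes did not overlap with each other or with those of the others. Dnah7a (32.7 ± 4.46 TPM), Dnah1 (29.9 ± 3.37) and Dnah2 (27.2 ± 5.10) came next with overlapping ranges, as did Dnah12 (24.6 ± 4.11), Dnah7b (21.3 ± 1.73) and Dnah6 (16.9 ± 2.81). Dnah10 (8.19 ± 1.70 TPM) and Dnah3 (5.27 ± 1.28) were lower. Dnah9 (0.347 ± 0.0569 TPM) and Dnah11 (0.0967 ± 0.0586) were close to 0, and Dnah5 was at 0 in all 14 libraries and could not be tested. Levels in TPM are not compared between input and IP, because a few small RNA entries took 53.8% to 59.4% of TPM in wild-type input, 62.2% to 65.5% in mutant input and 2.82% to 7.56% in IP.

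Outside the heavy chains, Meig1, a small protein needed to build the manchette of elongating spermatids, was the highest member at 1607 ± 319 TPM in wild-type input. Rsph1, a radial spoke head protein, followed at 810 ± 99.6 TPM. The assembly factors ranged from Dnaaf1 (134 ± 28.9 TPM), a scaffold for arm preassembly, and Zmynd10 (113 ± 16.5) down to Dnaaf2 (11.1 ± 4.65) and Dnaaf3 (4.34 ± 0.900). Tekt1, a filament protein of the doublet wall, was at 132 ± 20.9 TPM and Ccdc39, which forms the molecular ruler for arm spacing together with Ccdc40, at 121 ± 24.0 TPM. Dnali1 (29.3 ± 1.92 TPM), an inner arm light chain, Dnai1 (27.1 ± 3.84) and Dnai2 (26.7 ± 4.55), the outer arm intermediate chains, were close to each other. A protein-coding transcript led in each of the 39 members with counts, and in 25 of them it held over 90% of the counts of the gene in wild-type input.

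In input, abundance of most members was lower in mutants than in wild type, but no single member passed the test. Of 39 members tested, 37 had an estimate below 0 and 2 above it, with a median log2 difference of -0.49 (quartiles -0.65 and -0.30), beside -0.18 over all 36572 features tested. None was called by edgeR at an adjusted p under 0.05, a rule that called 3 features in either direction (0.0082% of those tested). At an unadjusted p under 0.05, 18 members were lower and 0 higher, where 4.76% of all features were lower. DESeq2 called 7 members lower (Dnah8, Dnah6, Dnah12, Dnai2, Cfap44, Spag16 and Tekt2) and 2.16% of all features. Scaling by RLE size factors moved the median of all features to -0.12 and that of the members to -0.41, and over features that reached 10 counts in each library the medians were 0.03 and -0.37. The count of 18 depended on the libraries. It was 11 without wild type 121 (3.52% of all features), 12 without mutant 94 (3287 of 33948 features) and 12 with RLE size factors (1383 of 36572). Without mutants 12 and 69, whose inputs held the fewest genes, 27 members were lower and 1 higher at an unadjusted p under 0.05, where 8.92% of all features were lower, and the median was -0.54 for the members and -0.07 for all features.

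The mutants did not overlap the wild types, and lay below them, for 20 of 39 members in input, beside 11.3% of all features tested. Where only features with 10 counts or more in each library were kept, this held for 18 of 36 members and 11.5% of features. The count depended on the scaling. With RLE size factors it was 11 of 39 (9.79% of all features), all of them among the 20: Dnah8, Dnah17, Dnah3, Dnah6, Dnah12, Dnai2, Cfap44, Spef1, Spag6, Spag16 and Tekt2. With deposited TPM it was 19 (15.2%), of which 16 were among the 20, without Ccdc39, Cfap44, Spef1 and Cfap70. Overlap of single genes is given below in CPM with TMM normalization unless stated otherwise. No member lay above the wild types in every mutant. The plot of levels by library shows where single libraries depart from their group.

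**Figure D1:**
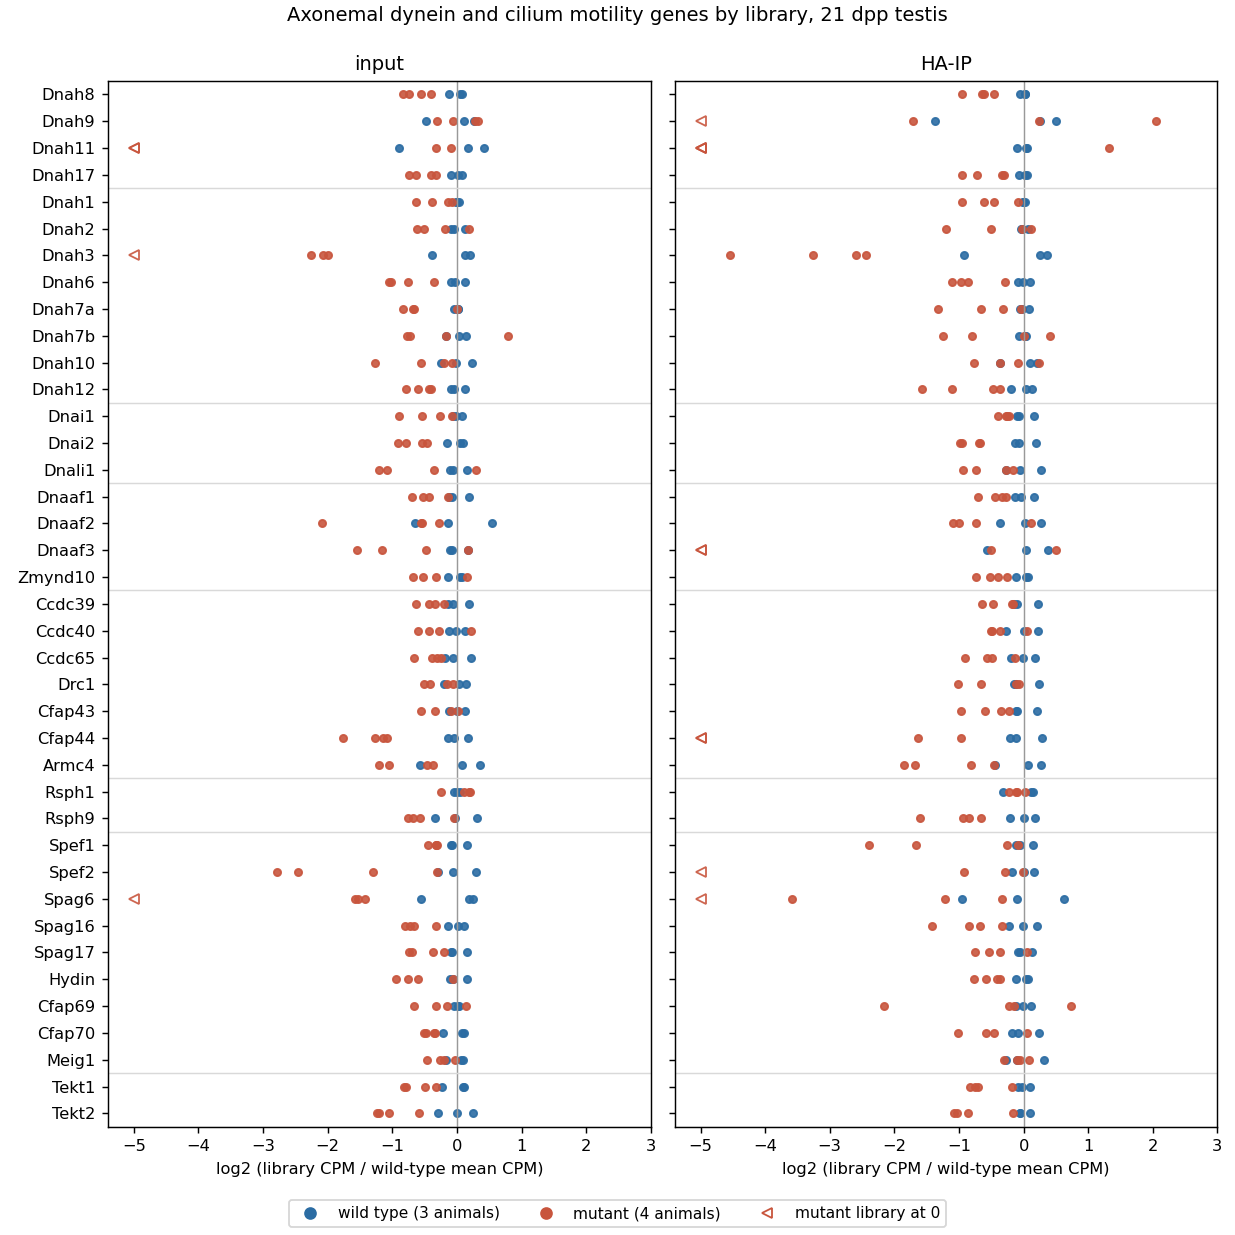
Each point is the level of 1 library in input (left) or IP (right), as the log2 of its CPM over the wild-type mean CPM of that gene, for the 39 members with counts, ordered by role with grey lines between roles (blue, 3 wild types; red, 4 mutants; open triangles at the left edge, mutant libraries at 0). Most mutant points lie left of the wild-type points, Rsph1 and Dnah9 do not. Members such as Dnah3, Spag6, Dnah11, Dnaaf3 and Cfap44 have mutant libraries at 0.

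Cfap44, a tether protein that links the inner arm motor f to the doublet, had the smallest p of the members in input. It lay at 142, 116 and 122 CPM in wild types and at 37.5, 57.3, 59.7 and 52.6 CPM in mutants. In CPM all mutants were below all wild types, at 0.409 of the wild-type mean (log2 difference -1.29, SE 0.18, edgeR adjusted p = 0.232, DESeq2 adjusted p = 3.34e-08). In IP Cfap44 was at 188, 133 and 141 CPM in wild types and at 0, 78.4, 0 and 49.7 CPM in mutants. Mutants 12 and 93 thus gave no count, and the fitted IP difference of this gene depends on the prior count. In deposited TPM the groups overlapped in both fractions. Input was at 15.6 to 26.7 TPM in wild types and 3.84 to 17.7 in mutants, IP at 30.1 to 46.75 and 0 to 30.6. Its leading transcript was Cfap44-201 in wild-type input and Cfap44-202 in wild-type IP and in both mutant fractions. Cfap44-201 held 49.9% of its counts in wild-type input and 27.7% in mutant input, where its share ranged from 0% to 79.8% between libraries.

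Dnah8, the sperm outer arm heavy chain, took 30.4% to 33.1% of the counts of the 40 members in wild-type input and 23.8% to 31.4% in mutant input. Its level was 4487, 4398 and 3933 CPM in wild-type input and 2396, 2543, 3247 and 2899 CPM in mutant input. The groups did not overlap, and the log2 difference was -0.62 (SE 0.11, edgeR adjusted p = 0.337, DESeq2 adjusted p = 3.28e-05). In IP it lay at 6816, 6856 and 6497 CPM in wild types and at 4879, 4320, 4398 and 3472 CPM in mutants. Here too every mutant was below every wild type (log2 difference -0.66, SE 0.11, edgeR adjusted p = 0.114, DESeq2 adjusted p = 1.43e-04). The sum of the other 39 members was 8896 to 9759 CPM in wild-type input and 6349 to 8157 CPM in mutant input, also without overlap.

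Dnah17, the other outer arm heavy chain of sperm, lay at 885, 826 and 927 CPM in wild-type input and at 668, 706, 566 and 526 CPM in mutant input. In IP the values were 1809, 1841 and 1702 CPM in wild types and 1422, 1452, 1083 and 924 CPM in mutants. Neither fraction showed overlap, with log2 differences of -0.51 (SE 0.12, edgeR adjusted p = 0.347) in input and -0.55 (SE 0.16, edgeR adjusted p = 0.139) in IP. The epithelial paralogs were barely detected. Dnah9 was at 3.85, 4.28 and 2.57 CPM in wild-type input and at 2.88, 3.43, 4.46 and 4.34 CPM in mutant input, with overlapping groups and an estimate of 0.08 (SE 0.90). Dnah11 was at 1.32, 1.58 and 0.632 CPM in wild-type input and at 0, 0, 0.937 and 1.10 CPM in mutant input, so no fold is given.

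Of the inner arm heavy chains, Dnah12 and Dnah6 had the smallest p in input. Dnah12 was at 414, 365 and 356 CPM in wild types and at 248, 280, 285 and 219 CPM in mutants, without overlap (log2 difference -0.55, SE 0.12, edgeR adjusted p = 0.347). Dnah6 fell from 256 to 298 CPM over the wild types to 132 to 214 CPM over the mutants by DESeq2 (log2 difference -0.70, adjusted p = 0.0148) and was not called by edgeR (-0.77, SE 0.18, adjusted p = 0.347). Dnah1 was at 509, 492 and 498 CPM in wild-type input and at 475, 452, 381 and 321 CPM in mutant input, a smaller separation (log2 difference -0.29, SE 0.14). Dnah3 stood apart in size: 54.5, 38.2 and 57.3 CPM in wild-type input against 0, 12.6, 10.4 and 11.9 CPM in mutant input, and 69.8, 31.1 and 75.2 CPM in wild-type IP against 9.77, 6.16, 2.51 and 10.9 CPM in mutant IP. In IP its log2 difference was -3.00 (SE 0.55, edgeR adjusted p = 0.114, DESeq2 adjusted p = 6.30e-06). Dnah10 overlapped between genotypes, at 106, 125 and 147 CPM in wild-type input and 110, 119, 85.4 and 52.5 CPM in mutant input.

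Dnah7a and Dnah7b are near-identical copies whose reads the counting could have divided in different ways, so their separate values are uncertain. Dnah7a was at 291, 291 and 279 CPM in wild-type input and at 288, 180, 161 and 181 CPM in mutant input, with mutant 12 among the wild types. Dnah7b was at 287, 249 and 309 CPM in wild-type input and at 166, 485, 170 and 251 CPM in mutant input, with mutant 69 above all wild types. The library that was highest for 1 copy in mutants was thus not highest for the other.

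The intermediate chain Dnai2, whose X-box is printed above, was at 96.1, 81.4 and 93.7 CPM in wild-type input and at 65.3, 62.3, 52.1 and 48.2 CPM in mutant input (log2 difference -0.67, SE 0.15, edgeR adjusted p = 0.347). In IP it was at 102, 81.1 and 84.8 CPM in wild types and at 46.0, 56.1, 55.5 and 45.1 CPM in mutants (log2 difference -0.82, SE 0.16, edgeR adjusted p = 0.114). All mutants were below all wild types in both fractions in CPM. In deposited TPM the IP groups overlapped, at 40.1 to 51.2 in wild types and 23.1 to 74.2 in mutants. The leading transcript of Dnai2, Dnaic2-201, held 98.2% of its counts in wild-type IP and 71.9% in mutant IP. The light chain Dnali1 overlapped, at 73.4, 70.4 and 84.9 CPM in wild-type input and 59.5, 94.0, 33.2 and 35.9 CPM in mutant input, with mutant 69 above every wild type.

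Among assembly factors, Dnaaf1 was at 529, 442 and 429 CPM in wild-type input and at 324, 424, 347 and 287 CPM in mutant input (log2 difference -0.43, SE 0.15, edgeR adjusted p = 0.490). Its highest mutant was just below its lowest wild type. Zmynd10, Dnaaf2 and Dnaaf3 overlapped between genotypes in input. Dnaaf3, which shares part of its locus and strand with Tnni3, was at 0 in IP of mutants 93 and 94. In IP of mutants 12 and 69 it was at 22.0 and 44.0 CPM, beside 20.95 to 40.5 CPM in wild-type IP. Of the docking, ruler, regulatory and tether genes, Ccdc39 was at 551, 464 and 444 CPM in wild-type input and at 385, 424, 359 and 312 CPM in mutant input (log2 difference -0.39, SE 0.13, edgeR adjusted p = 0.451). Ccdc65 was also lower in all mutants, whereas Ccdc40, Drc1, Cfap43 and Armc4 overlapped.

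Radial spoke gene Rsph1 was the most abundant exception: 1062, 1096 and 1027 CPM in wild-type input and 898, 1202, 1223 and 1146 CPM in mutant input, with mutant 12 below and the other mutants above the wild types (log2 difference 0.07, SE 0.12). Rsph1 and Dnah9 were the 2 members with an estimate above 0 in input. Rsph9 overlapped in input, at a log2 difference of -0.49 (SE 0.23), and was lower in every mutant in IP (-0.97, SE 0.23, edgeR adjusted p = 0.114, DESeq2 adjusted p = 6.09e-03).

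In the central apparatus group, Meig1 was at 971, 948 and 804 CPM in wild-type input and at 655, 789, 887 and 756 CPM in mutant input, with overlap (log2 difference -0.23, SE 0.12). All mutants were below all wild types for Spag16, Spag17, Cfap70, Spef1, Spef2 and Spag6. Spag16, a central apparatus scaffold, had a log2 difference of -0.62 (SE 0.14, edgeR adjusted p = 0.347, DESeq2 adjusted p = 0.0284). Spef2 and Spag6 were weak, at 31.5 to 47.3 and 18.8 to 32.8 CPM over wild-type input libraries and 5.58 to 31.3 and 0 to 10.4 CPM over mutant ones. Hydin, the giant central pair projection protein, and Cfap69 overlapped in input.

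Both tektins were lower in every mutant in input and IP with TMM normalization. With RLE size factors this held for Tekt2 alone in input and for Tekt1 alone in IP. Tekt2 was at 71.4, 48.9 and 59.8 CPM in wild-type input and at 26.0, 40.1, 28.9 and 25.5 CPM in mutant input (log2 difference -0.996, SE 0.22, edgeR adjusted p = 0.347, DESeq2 adjusted p = 0.0104). Tekt1 was at 227, 183 and 231 CPM in wild types and at 152, 171, 124 and 121 CPM in mutants (log2 difference -0.59, SE 0.16, edgeR adjusted p = 0.347). The median input difference over the 8 members with an X-box was -0.64, from -1.29 (Cfap44) to 0.08 (Dnah9). Over the 27 tested members that have a promoter window without it, the median was -0.45, from -1.92 to -0.07. The difference between these medians was not tested.

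**Figure D2:**
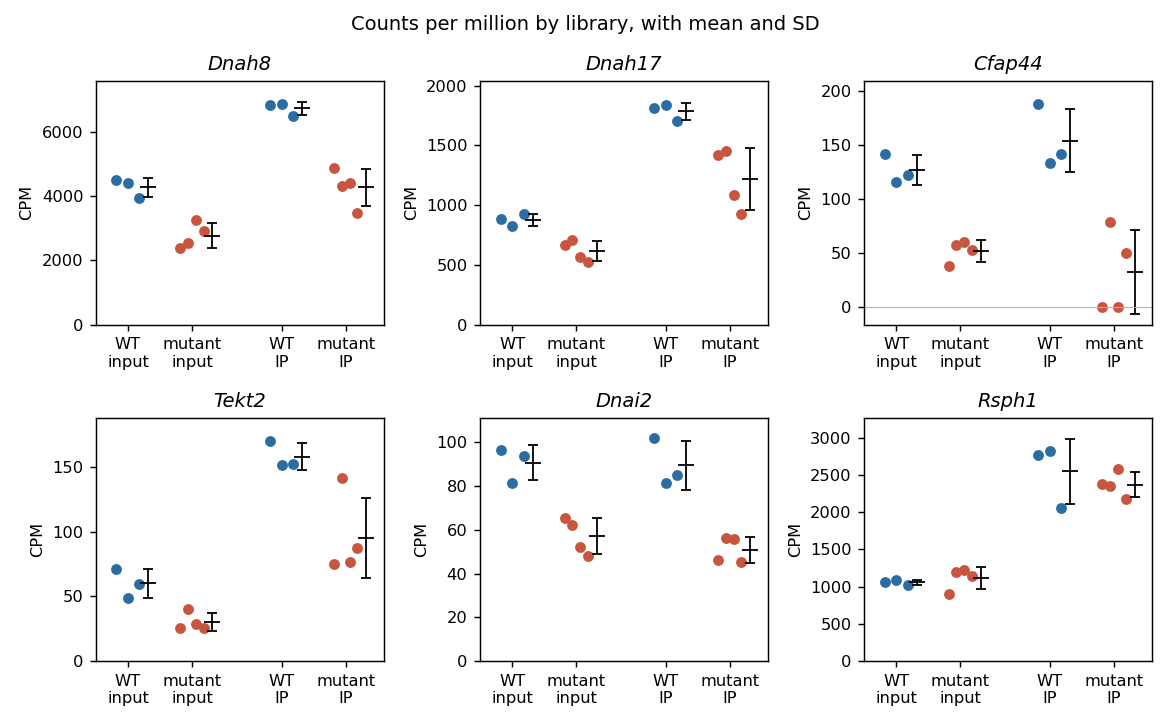
Level in CPM (linear axes; input and IP are scaled separately) of Dnah8, Dnah17, Cfap44, Tekt2, Dnai2 and Rsph1 in each wild-type (blue) and mutant (red) library of input and IP, with the mean and SD beside the points (3 wild types, 4 mutants). In each gene but Rsph1 all mutant points lie below all wild-type points in both fractions, and Cfap44 is at 0 in IP of mutants 12 and 93.

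Ribosome-bound RNA showed a pattern of the same size. In IP, 38 of 39 members had an estimate below 0, with a median log2 difference of -0.51 beside -0.15 over all 26186 features tested (RLE size factors gave -0.41 and -0.05). edgeR called none of them and 2 of all features (0.00764%). At an unadjusted p under 0.05, 18 members were lower and 0 higher, where 10.3% of all features were lower, and DESeq2 called 7 lower (Dnah8, Dnah3, Dnah6, Dnai2, Rsph9, Hydin and Tekt1) where it called 7.94% of all features. Mutants lay below all wild types for 19 of 39 members (14.5% of features tested) and for 18 of the 33 members that reached 10 counts in each library (11% of such features). With RLE size factors the count was 13 of 39 (12.3%), without Dnah1, Armc4, Ccdc39, Cfap43, Spag16 and Tekt2. With deposited TPM it was 9 (12.7%): Dnah8, Dnah3, Dnah7a, Dnaaf1, Zmynd10, Armc4, Rsph9, Spag16 and Tekt2. The count of 18 was 11 without wild type 121 (10.6% of all features) and 13 without mutant 93 (3337 of 24798 features). Without mutants 12 and 69 it was 27, where 18.2% of all features were lower, and the median was -0.81 for the members and -0.25 for all features. The 40 members together summed to 19420 to 21520 CPM in wild-type IP and 12000 to 16830 CPM in mutant IP, without overlap.

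Stage markers moved with these values. The summed level of 12 late pachytene markers was 4453 to 5084 CPM in wild-type input and 3065 to 3798 CPM in mutant input, and 9193 to 10450 against 6777 to 7772 CPM in IP. All 12 had an input estimate below 0 (median log2 difference -0.51). edgeR called none of them, 8 were lower at an unadjusted p under 0.05 (4.76% of all features), and DESeq2 called 5 (2.16%). In IP 11 of the 12 had an estimate below 0 and 1 above it. The sum of 14 round spermatid markers was 248 to 323 CPM against 137 to 169 CPM in input. In IP it was 184 to 190 against 102 to 133 CPM, with Spem1 at 0 in every IP library. In input 11 of the 14 could be tested, all with an estimate below 0. In IP only 6 could be tested, of which 4 had an estimate below 0 and 2 above it. Early meiotic markers overlapped in input, with sums of 2034 to 2195 and 1988 to 2439 CPM. The 12 Sertoli cell markers summed to 957 to 1123 CPM in wild-type input and 1127 to 1561 CPM in mutant input. Multiciliated epithelium of the rete testis and efferent ducts is another possible source of axonemal RNA. Its markers summed to 50.9 to 68.5 CPM in wild-type input and 33.5 to 77.7 CPM in mutant input. In IP they summed to 41.7 to 48.8 and 6.31 to 55.5 CPM. Only 5 of the 10 markers could be tested in input. Mcidas and Gmnc were at 0.00333 and 0.0567 TPM in wild-type input. Sntn was at 0 in all inputs, and Sntn and Gmnc were at 0 in all IP libraries. The part of these cell types in the differences of the axonemal genes was not tested, and in bulk RNA fewer cells of a type and less RNA per cell cannot be told apart.

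**Figure D3:**
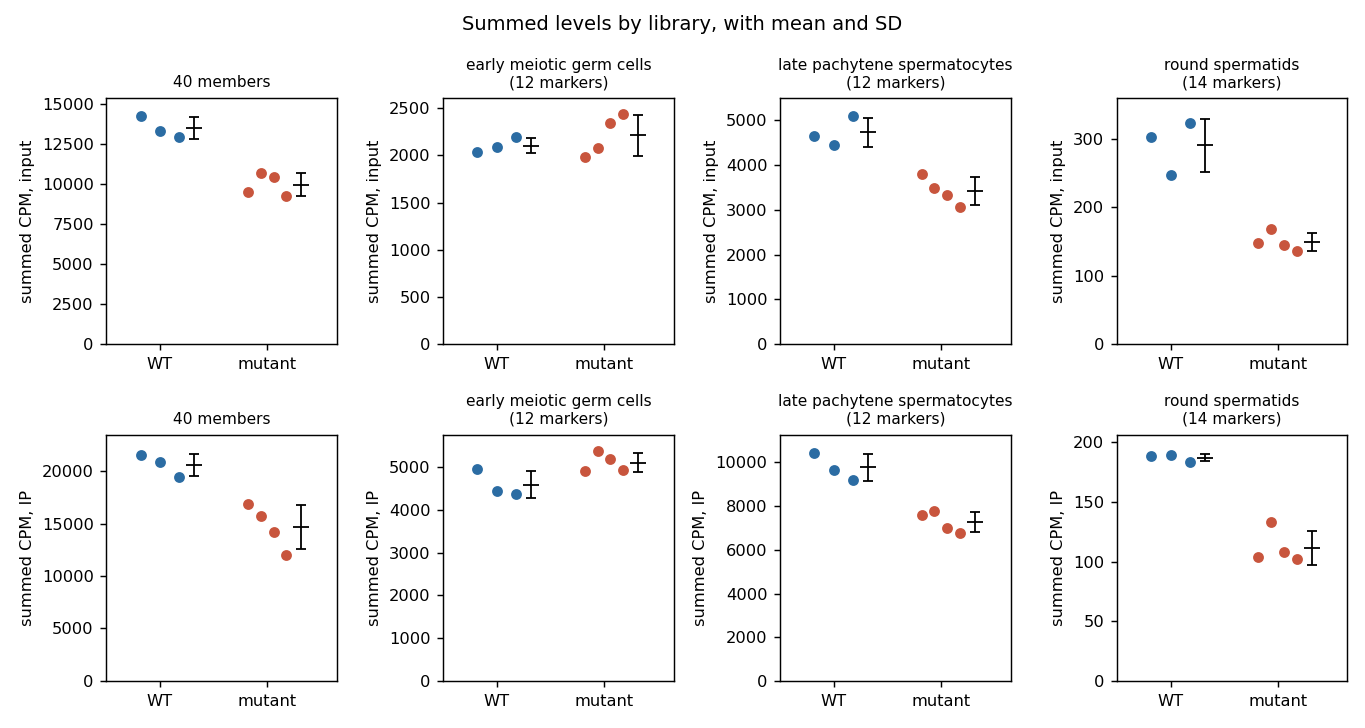
Summed CPM of the 40 members and of 3 lists of stage markers in each library of input (top) and IP (bottom), with the mean and SD beside the points (blue, 3 wild types; red, 4 mutants; linear axes from 0). The sums of the members, the late pachytene markers and the round spermatid markers are lower in every mutant in both fractions. Those of the early meiotic markers are not.

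IP held more of most members than input did in wild type, at a median log2 difference of 0.81 beside -0.72 over all features tested. Over features that reached 10 counts in each library the medians were 0.62 and -0.09. Marker medians were 0.93 for late pachytene, 1.49 for early meiotic cells, 2.37 for spermatogonia, -2.47 for round spermatids and -2.16 for Sertoli cells. The part of somatic RNA of the input in these differences was not tested. Of 39 members tested, 27 were called higher in IP by edgeR with the animal as a block and 1 was called lower, beside 11.1% of all features called higher and 5.02% lower. Much of that background is weakly expressed: over features that reached 10 counts in each library, 28.2% were called higher and 29.8% lower, and of the members 27 higher and 3 lower. The assembly factors were all called higher: Dnaaf2 by 2.08 (SE 0.24, adjusted p = 0.0124), Dnaaf3 by 1.72, Zmynd10 by 1.38 and Dnaaf1 by 0.96. The 7 docking, ruler, regulatory and tether genes were called higher as well, led by Drc1 (1.84, SE 0.13, adjusted p = 0.00532) and Ccdc40 (1.51), with Ccdc39 lowest at 0.38. Ccdc39 was not called without the block, without the filter on low counts, with protein-coding transcripts alone or over features that reached 10 counts in each library.

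Both tektins (Tekt2 1.76, Tekt1 1.46) and both radial spoke genes (Rsph1 1.597, Rsph9 1.14) were called higher in wild-type IP, as were Dnah17 (1.37) and Dnah8 (1.005, SE 0.06, adjusted p = 0.00487). Of the inner arm heavy chains 6 of 8 were called higher, from 0.63 (Dnah6) to 1.31 (Dnah1), and Dnah7a was at -0.08 (SE 0.08). The central apparatus group differed among themselves: Cfap70 (0.86), Spag16 (0.72) and Hydin (0.48) were called higher, Cfap69 was called lower (-0.75, SE 0.10, adjusted p = 0.0180), and Meig1 was at -0.61 (SE 0.14, adjusted p = 0.0641). Meig1, the member with the highest TPM in input, was thus among the lowest in IP relative to input. With RLE size factors 26 members were called higher. The calls rested on 3 pairs: without animal 121 or 140 none was called, and without animal 17 it was 17, while the median stayed between 0.72 and 0.85.

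In mutants the same comparison called 12 of 39 members higher and 1 lower, beside 3.6% of all features higher and 2.08% lower (19.9% and 20% over features that reached 10 counts in each library, where 12 of 32 members were called higher and 3 lower). Dnaaf2 (1.87, SE 0.33), Tekt2 (1.64, SE 0.21), Drc1 (1.32), Dnah10 (1.14), Ccdc40 (1.12), Rsph1 (1.10) and Tekt1 (1.09) were among the 12, and Dnah8 rose by 0.63 (SE 0.13, adjusted p = 0.0440). Meig1 was called lower (-0.79, SE 0.11, adjusted p = 0.00732). Without mutants 12 and 69, no member was called, with 2 pairs left. Mutant and wild type were fitted separately and their counts of calls are not a test of a difference.

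**Figure D4:**
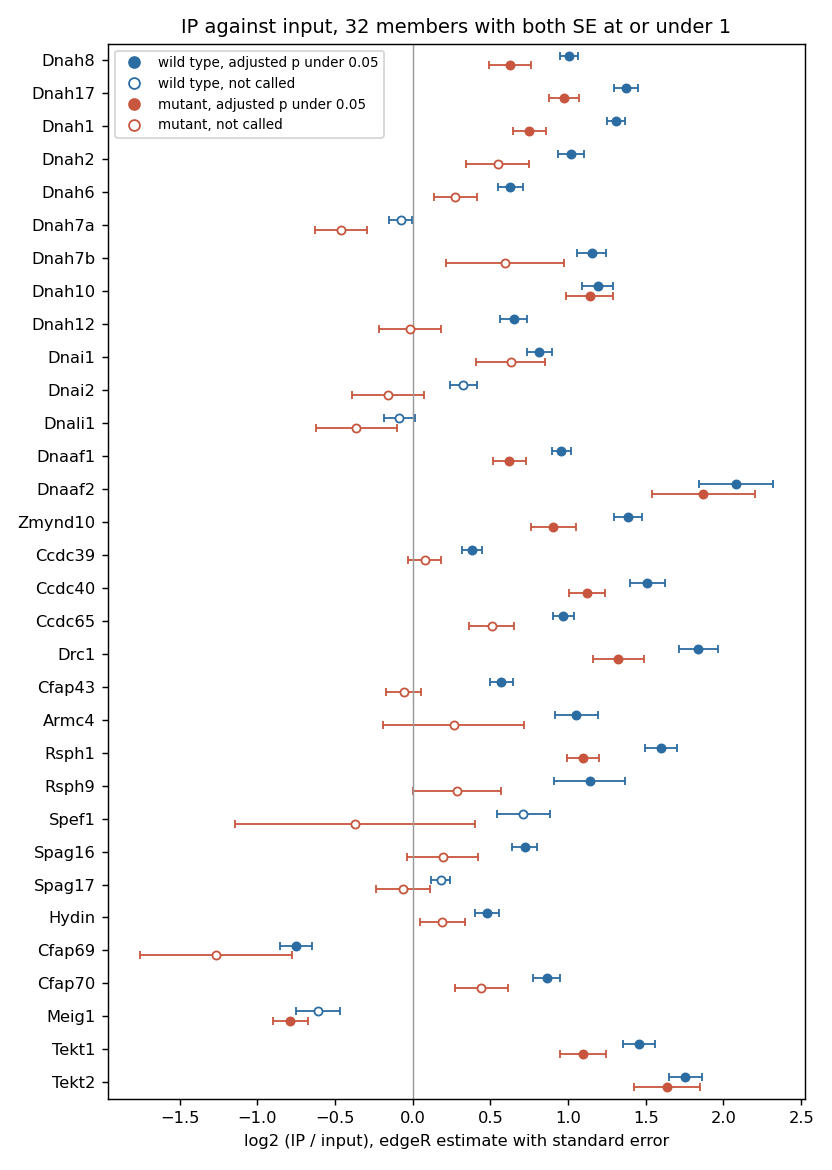
Estimated log2 difference of IP against input in wild type (blue, 3 pairs) and in mutants (red, 4 pairs) for the 32 members with a standard error of at most 1 in both fits, with bars for the standard error and filled points for an adjusted p under 0.05. Most points lie right of 0, Dnaaf2, Drc1 and Tekt2 farthest, and Cfap69, Meig1, Dnah7a and Dnali1 lie left of 0 in both genotypes. Each genotype is scaled on its own, so the offset between colours is no test.

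Ribosome association of the members was not shown to differ between genotypes. In the interaction of fraction and genotype, over all 14 libraries with the animal as a block, 36 members could be tested and edgeR called none of them, nor any of the 16019 features (0%). At an unadjusted p under 0.05, 2 members were lower and 0 higher, where 6.75% of all features were lower, and DESeq2 called no member and 5.9% of all features lower. Without mutants 12 and 69, 10 of 39 members were lower at an unadjusted p under 0.05, where 13.6% of all features were. The median log2 difference of the members was -0.11, beside -0.29 over all features tested. Over features that reached 10 counts in each library it was 0.0032 for the members and 0.0203 for all, so the sign of the median did not hold. All mutants were below all wild types in the ratio of IP to input CPM for 2 of 36 members (8.61% of features tested), and above them for 0 (1.25%).

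These 2 were Cfap43 and Dnah1. The IP/input ratio of Cfap43, a partner of Cfap44 in the tether, was 1.20, 1.08 and 1.20 in wild types and 0.904, 0.952, 0.998 and 0.902 in mutants (interaction log2 difference -0.30, SE 0.10, edgeR adjusted p = 0.515). For Dnah1, an inner arm heavy chain, the ratio was 1.89, 1.93 and 1.97 in wild types and 1.77, 1.5, 1.71 and 1.61 in mutants (-0.23, SE 0.10, edgeR adjusted p = 0.670). Dnah10 was the third by p, with ratios of 1.61, 2.07 and 1.69 in wild types and 2.24, 1.72, 2.12 and 2.62 in mutants, which overlap (0.27, SE 0.18, edgeR adjusted p = 0.866). Ratios of the most abundant motor, Dnah8, were 1.47, 1.54 and 1.69 in wild types and 1.88, 1.62, 1.38 and 1.23 in mutants, the mutants lying on both sides of the wild types. Those of Dnah17 were 1.98, 2.20 and 1.87 against 1.96, 1.96, 1.95 and 1.81.

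The ratios are scaled over the features tested in the interaction, which places them lower than the fits within a genotype: Ccdc39, called higher in wild-type IP, had ratios of 1.02, 0.991 and 1.04 in wild types and 1.07, 0.986, 1.02 and 1.05 in mutants. The direction against input was the same on both scales for members such as Drc1 (2.35 to 3.13 in wild types, 2.04 to 2.85 in mutants), Tekt2 (2.30 to 3.04 and 2.67 to 3.52) and Rsph1 (2.04 to 2.54 and 1.87 to 2.44), whose ratios lay above 1, and for Meig1 (0.389 to 0.614 and 0.462 to 0.639), whose ratios lay below 1.

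Other genes of the same structures showed the same direction. Of 132 further genes in 8 lists, 130 were found and 127 could be tested in input, where 113 had an estimate below 0 and 14 above it, with a median log2 difference of -0.34 beside -0.18 over all features. edgeR called none of them, 42 were lower and 1 higher at an unadjusted p under 0.05 (4.76% of all features were lower), and DESeq2 called 8 lower (2.16%). By median, dynein arm and docking genes (-0.34), assembly factors (-0.33), nexin-dynein regulatory and ruler genes (-0.52), radial spokes (-0.56), central apparatus (-0.40) and doublet inner proteins (-0.48) were further below 0 than intraflagellar transport genes (-0.16), 27 genes of a machinery that non-motile cilia use as well, whose median was close to that of all features. Of the intraflagellar transport genes, 8 of 27 were nevertheless lower at an unadjusted p under 0.05 (4.76% of all features). In 10 of them every mutant was below every wild type (11.3% of all features). Their sum was 4724 to 5062 CPM in wild-type input and 4068 to 4359 CPM in mutant input. Motile cilium transcription regulators had a median of -0.32 over 13 genes tested. Among the genes with small p was Cfap300, an assembly factor, at 64.5, 65.0 and 63.7 CPM in wild types and 45.7, 37.7, 36.0 and 33.4 CPM in mutants (log2 difference -0.75, SE 0.15, edgeR adjusted p = 0.347).

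Drc3, of the nexin-dynein regulatory complex, was at 114, 118 and 126 CPM in wild-type input and 90.1, 80.9, 88.3 and 76.1 CPM in mutant input (-0.51, SE 0.11, edgeR adjusted p = 0.347). Kif17, a kinesin of ciliary transport, was at 16.7 to 25.8 CPM over the wild types and 6.41 to 11.9 CPM over the mutants (-1.45, SE 0.36, edgeR adjusted p = 0.347). Crem, a transcriptional activator of postmeiotic genes, overlapped at 110, 102 and 122 CPM against 66.4, 108, 81.0 and 80.0 CPM. E2f4, which takes part in multiciliogenesis, was the 1 gene with an unadjusted p under 0.05 in the other direction, at 10.99, 12.9 and 12.01 CPM in wild types and 20.6, 20.2, 18.6 and 15.5 CPM in mutants (0.64, SE 0.26, edgeR adjusted p = 0.697). In wild-type IP against input, 77 of 127 of these genes were called higher and 1 lower. Over all features 11.1% were called higher, and 28.2% of those that reached 10 counts in each library. Without animal 121 or 140 no feature was called. In IP between genotypes edgeR called none of 125, 42 were lower and 0 higher at an unadjusted p under 0.05 (10.3% of all features were lower), and DESeq2 called 16 lower (7.94%) and 1 higher. The interaction called none of 117, with 2 lower at an unadjusted p under 0.05 (6.75% of all features) and 0 called by DESeq2.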

How the data were processed

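The 7 animals (3 wild types, 4 mutants) each gave 1 input and 1 IP library. The paper describes stranded, ribosomal RNA-depleted, paired-end sequencing and estimation by RSEM. For each transcript the authors deposited RSEM expected counts, not normalized, and TPM, with RSEM 1.3.3 and GRCm38 named in the processing notes. TPM is scaled over all entries of a library, small RNAs and spike-ins included. Of 182829 deposited entries, 133849 were Ensembl transcripts, 48888 assembled transcripts and 92 spike-ins. Counts of the 133445 transcripts found in GENCODE M21 were summed by gene symbol, others were kept singly (102531 features). Dnai1 and Dnai2 are Dnaic1 and Dnaic2 there. RSEM splits reads shared between copies by probability, so paralogs and overlapping genes on the same strand carry added error.

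Rounded counts were tested in edgeR 4.0.16 (filterByExpr, TMM, robust quasi-likelihood test, Benjamini-Hochberg adjusted p under 0.05 over all features) for input, for IP, for IP against input in each genotype and for the interaction; the animal was a block in the last 3. Features with no count in some input were dropped from the interaction. The pairing comes from the animal: after removal of group means its input and IP correlated by 0.09, 0.12 and 0.06 in wild types and 0.02, 0.03, 0.02 and 0.05 in mutants. The study compared input with EBSeq and ratios with a test per transcript; EBSeq was not used here. DESeq2 1.42.0, RLE size factors, no filter, a minimum of 10 counts in each library, protein-coding transcripts alone, no block, deposited TPM and leaving out each animal were alternatives, and leaving out mutants 12 and 69 together was chosen after the data were seen. Scripts ran on R 4.3.3 and Python 3.11.15 and were tested on simulated data. SD is over animals. The SE of an edgeR estimate was derived from the estimate and its test statistic, whose variance draws on other features as well. Library depth is given above. The p-values reflect the spread between these animals, in the blocked fits that of the difference between IP and input.

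The members, the gene lists and the motifs were chosen with earlier results of these data known, so they are described by counts and medians. All members could be named; values in every library were given for the member with the highest input TPM in each role, the smallest p-values (5 in input, 3 in IP, 3 in the interaction), the heavy chain paralogs and members with a sign opposite to the median, and up to 3 genes per other list by p. The values of 1 gene of these lists are not reported here.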

Additional observations from a re-analysis of the deposited data

Results flagged for a closer look

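Among 114 groups of 4 mutant libraries examined, 8 held 1 library that departed from the other 3 by more than Dixon's limit, and chance alone flags about 1 in 20 such groups. Mutant 12 accounted for 6 of them. Its input held no count of Dnah3 (0 CPM, others 10.4 to 12.6) or of Spag6 (0 CPM, others 9.33 to 10.4), and its Dnah7a input level of 288 CPM was above the 161 to 181 CPM of the other mutants. In IP it was high for Tekt1 (403 CPM, others 259 to 280) and for Dnah11 (2.43 CPM, others at 0). Its IP/input ratio for Dnah7b was 3.61, against 0.970 to 1.23 in the other mutants. The Dnah17 ratio was low in mutant 94 (1.81, others 1.95 to 1.96), and the Zmynd10 ratio was low in mutant 69 (1.32, others 1.996 to 2.10). The input of mutant 12 held 16024 genes above 0, where wild-type inputs held at least 25319. Whether the sparse libraries bear on these values was not tested.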

How the results depend on the processing

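Most member values kept their side of the threshold under each alternative, with exceptions in the number of calls. Under DESeq2, 7 members were called lower in input and 7 in IP; without the filter 1 was in each (Cfap44 in input, Dnah3 in IP). Under DESeq2 all-feature calls were 352 higher and 791 lower in input, 426 and 2078 in IP, 35 and 945 in the interaction, 7990 and 11003 in wild-type IP against input, and 3190 and 7940 in mutants. Without the filter they were 5 and 25 in input and 5 and 71 in IP; with at least 10 counts in every library 1 was higher in input, 0 in IP; with protein-coding transcripts 0 and 0 in input. In wild-type IP against input, with at least 10 counts, 5813 features were lower, and members lower numbered 3 (2 under DESeq2 and 2 without the filter). In mutants, at least 10 counts gave 1960 higher and 1977 lower, with 3 members lower, and DESeq2 gave 5. The wild-type median of 0.81 became 0.79 (DESeq2, RLE and protein-coding transcripts), 0.62 (at least 10 counts) and 0.77 (no filter), and the mutant median of 0.27 became 0.14 under DESeq2 and RLE. The interaction median turned from -0.11 to 0.0032 with at least 10 counts and was -0.27 with protein-coding transcripts. The causes were not tested.

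Without the replicate block, 4160 features were lower in wild-type IP against input and 1151 in mutants, and the interaction called 2 higher and 386 lower; members called stayed at 27 higher and 1 lower in wild types, 12 and 1 in mutants, and 0 in the interaction, so the replicate block changed no count of members called. The TPM ratio test of 15951 features, at an unadjusted p under 0.05, called 312 features higher and 374 lower and 1 member higher (Ccdc40, whose edgeR interaction estimate was -0.06 and whose CPM ratios overlapped). Members lower in all mutants numbered 11 in input with RLE and 9 in IP with deposited TPM; in the TPM ratio 0 were lower and 1 higher.

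Without mutants 12 and 69 together, features called were 0 and 0 in input and 0 higher in IP. In mutant IP against input they were 6 and 6, with 0 members higher and 0 lower (2 pairs). In the interaction 76 features were lower, with 1 member lower (Dnaaf3, at 0 in IP of both mutants left). Medians were -0.81 in IP and -0.18 in the interaction. Leaving out 1 animal at a time gave, in wild-type IP against input, 0 to 2666 features higher, 0 to 1088 lower, 0 to 17 members higher, 0 lower and medians of 0.72 to 0.85, where 2 pairs remain. In mutants the ranges were 612 to 888 higher, 303 to 558 lower, 7 to 10 members higher (7 without mutant 93), 0 to 1 lower and medians of 0.21 to 0.44. In input 0 to 1 features were higher and 0 to 1 lower; in IP 0 to 2 and 0 to 3; in the interaction 0 to 10 were lower and medians were -0.27 to -0.11. Members above all wild types numbered 0 to 1 in input and 0 to 2 in the ratio, and below them 2 to 5 in the ratio. Members at 0 in mutants were so at depths close to those of wild types, and their fitted differences depend on the prior count.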
